A study of Mus musculus with 3 samples.

Results

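In the intestinal epithelium of E16.5 mouse embryos (late gestation) that lack HNF4, 374 of 33564 ATAC-seq peak regions were open-chromatin calls of modest score that lay in groups, were made in both HNF4 double-knockout (DKO) libraries, and had no counterpart in the control library. They were chosen by their calls and scores. Peaks of the 3 libraries that overlapped by 1 bp or more were merged into regions, and a region counted as DKO-only if each DKO library, but not the control, had a peak there. A DKO-only region on chromosomes 1 to 19 became a member if the lower of its DKO scores was below 30 and if 2 or more other DKO-only regions, of any score, had midpoints within 50 kb of its own. The selection therefore fixed the absence of a control peak, the score limit and the presence of neighbours, and these are given as descriptions without a test.

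The control library came from an embryo group with 1 CRISPR-mutated copy of Hnf4g (genotype Hnf4gCrispr/+), so it is not wild type, and its label lists no Cre driver and no floxed allele. The DKO libraries, replicates 1 and 2, carried Shh-Cre, floxed Hnf4a on both chromosomes and CRISPR mutations of both copies of Hnf4g (Shh-Cre; Hnf4af/f; Hnf4gCrispr/Crispr). Shh-Cre deletes floxed sequence in cells that express, or descend from cells that expressed, Sonic hedgehog, which includes the gut epithelium. Loss of HNF4A, loss of the remaining HNF4G copy and presence of Cre cannot be told apart in this design. All cells were EpCAM-positive epithelium collected on magnetic beads from the embryonic midgut, 20000 per library, and no label says whether a library came from 1 embryo or a pool.

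HNF4A and HNF4G are nuclear receptors that bind closely similar DNA sites in enhancers and promoters and are known for switching on enterocyte genes, such as those for fat absorption and the brush border. ATAC-seq reads out where the Tn5 transposase can reach the DNA, and distal peaks are often enhancers. Enhancers commonly lie in groups along a gene's neighbourhood, so several gained peaks within a short genomic distance can belong to 1 regulatory domain. Whether that holds for any group below was not tested, because gene annotation and sequence of the build of these lists (mm9, per the submitters' processing notes) were not used here, and neither genes nor sequences are given.

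The deposited lists held 16977 peaks for the control library, 18268 for DKO replicate 1 and 26648 for DKO replicate 2, all of 1 fixed width. Each peak carried an authors' score, a whole number whose meaning and common scale are not stated, so scores were also expressed as percentile ranks within their own library, where 100 is the strongest peak. Sequencing depth is unknown. A missing control peak means that none was called, and a weak signal below the calling threshold would look the same. Since 1 control library was sequenced, the spread among controls is unknown, and the difference between the DKO replicates was used as the measure of error.

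On chromosomes 1 to 19, 15352 regions were called in both DKO libraries, and 5232 of them (34.1%) were DKO-only. Most DKO-only regions had modest scores: 4717 (90.2%) had a lower score below 30. Modest scores did not mark this class, since 4000 of the 4283 regions called in the control alone (control-only) scored below 30 (93.4%). Few DKO-only regions were grouped: 432 (8.26%) had 2 or more others within 50 kb. Counted within their own class, this held for 8.17% of control-only regions and 20.1% of the 10120 regions called in all 3 libraries. It held for 10.3% of the 8862 regions of DKO replicate 2 alone and 1.62% of the 2031 of replicate 1 alone. The score limit and the grouping both held for 374, or 7.15% of the DKO-only regions. The same rule with the groups exchanged, applied to the 4283 control-only regions, kept 324 of them, or 7.56%. With full lists and both DKO libraries required, grouping was thus about as frequent among control-only as among DKO-only regions. It is not a property of the DKO-only class alone in these lists. The comparison depended on list length: with the 16977 top-scoring peaks of each library, the DKO-only share was 4.08% (141 regions) and the exchanged share was 9.31% (503 regions). The classes also differ in kind, since a control-only region needs a call in 1 library and a DKO-only region needs a call in 2. With 1 DKO library set against the control, the rule kept 2828 of 14136 regions for replicate 2 and 836 of 7310 for replicate 1. Both are larger shares than the 7.56% of the exchanged rule, from lists longer than that of the control.

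The word weak applies only in part. The members' scores in DKO replicate 1 ran from 11 to 40 with a median of 21, which was a median percentile rank of 38.4. Their scores in DKO replicate 2 ran from 10 to 56 with a median of 22 and a median rank of 51.4. The typical member therefore stood below the middle of the first list and at the middle of the second. In the whole lists, 64.8% of the peaks of DKO replicate 1 and 70.8% of those of DKO replicate 2 also scored below 30. Both scores were below 30 at 279 members (74.6%), and 95 members reached 30 or more in 1 library, 36 of them in replicate 1 and 59 in replicate 2. Both ranks were above 50 at 74 members (19.8%) and both were below 25 at 30 members (8.02%).

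The 4343 ungrouped DKO-only regions with a lower score below 30 had median scores of 19 and 21 in DKO replicates 1 and 2. Their median ranks were 29.5 and 47.9, against 38.4 and 51.4 for the members, so the grouped regions stood higher in both libraries. The SD of the ranks among members was 19.7 points in replicate 1 and 22.5 points in replicate 2, larger than these gaps, so the sets overlapped widely.

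**Figure D1:**
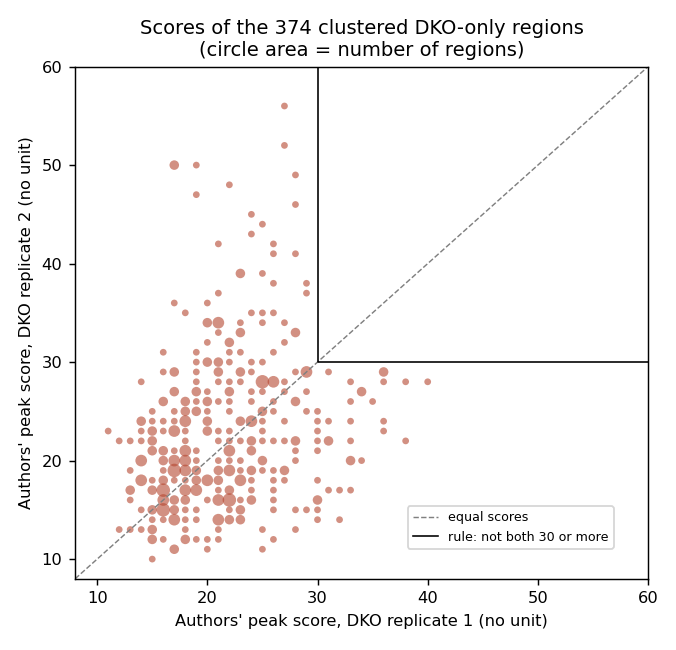
Authors' peak score of each member in DKO replicate 1 (horizontal axis) and DKO replicate 2 (vertical axis), with circle area giving the number of regions at a point and the black lines bounding the area that the rule leaves out. Points spread on both sides of the dashed line of equal scores, up to 40 in replicate 1 and 56 in replicate 2.

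The DKO replicates ordered the members differently. The score was higher in replicate 1 at 165 members, higher in replicate 2 at 189 and equal at 20. The score in replicate 1 minus that in replicate 2 averaged -1.32 with an SD of 8.53 over members, and 183 members (48.9%) had scores within 5 of each other. In percentile rank the same difference averaged -10.6 points with an SD of 25.3 points, against -15.7 points with an SD of 24.3 points at the ungrouped regions of the same score range. At the 10120 autosomal regions called in all 3 libraries, hereafter shared regions, it was -7.32 points with an SD of 18.6 points. At DKO-only regions with both scores of 30 or more the SD was 9.17 points where grouped and 9.63 points where not. The score limits differ between these sets and bound the spread of ranks, so the SDs do not compare repeatability. The peak centres lay a median of 72.5 bp apart in the DKO libraries at members, 67 bp at ungrouped regions and 61 bp at shared regions.

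Members nearest the score limit show how arbitrary it is. The member at chr1:159003613-159004272 scored 29 and 38 in DKO replicates 1 and 2, the member at chr16:31459957-31460562 scored 29 and 37, and the member at chr11:97630911-97631517 scored 36 and 29. Just outside lay chr6:39542357-39542998 with scores of 31 and 30, chr16:4679412-4680187 with 30 and 32, and chr18:38039581-38040372 with 33 and 30. The regions on each side of the limit differed by 1 unit of score in the weaker library. The distance limit had a similar edge. At 60 members the second-nearest DKO-only midpoint was 45 to 50 kb away, and at 62 regions of the same score range that were left out it was 50 to 55 kb away.

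The members formed 176 loci. A locus was a chain of DKO-only regions of any score in which neighbouring midpoints lay within 50 kb, kept if it held a member. The loci contained 587 DKO-only regions, of which 374 were members, 76 had a lower score of 30 or more, and 137 scored below 30 but had fewer than 2 others within 50 kb. Most loci were small: 132 held 3 DKO-only regions, 34 held 4, 6 held 5, 3 held 6 and 1 held 7. By members, 63 loci held 1, 41 held 2, 61 held 3, 9 held 4 and 2 held 5. In 62 loci at least 1 region scored 30 or more in both DKO libraries.

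The loci spanned a median of 54.3 kb, from 8.63 to 179.9 kb, and 10.0 Mb in total. Neighbouring DKO-only regions in them were a median of 23.2 kb apart. Only 3 of the 411 gaps between neighbours were under 2 kb and 19 (4.62%) were under 5 kb, so the loci were strings of separate peaks, mostly many kilobases apart. The longest, chr3:96380459-96560353, held 6 DKO-only regions, 3 of them members, and 3 shared regions lay between them.

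**Figure D2:**
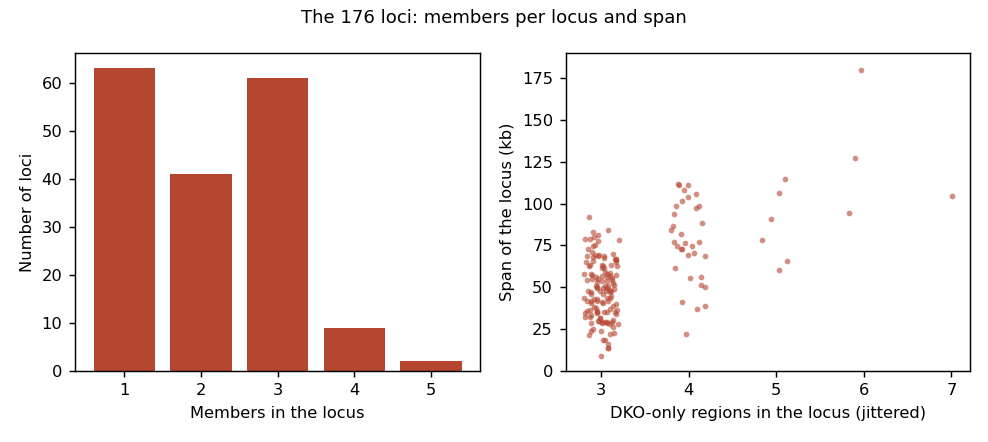
Left, the number of loci (vertical axis) holding 1 to 5 members (horizontal axis). Right, the span of each locus in kb against its number of DKO-only regions, 1 point per locus with horizontal jitter. Loci with 3 members number 61 and those with 5 number 2, and the longest span is 179.9 kb.

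Loci were found on every autosome. The share of DKO-only regions that were members was highest on chromosome 19, with 21 of 168 (12.5%, Wilson 95% interval 8.32 to 18.4%), and lowest on chromosome 13, with 8 of 238 (3.36%, 1.71 to 6.49%). These are the extremes of 19 chromosomes and were not tested. Chromosome 1 held the most members, 38 in 15 loci.

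Described next are the 12 loci with the most members, which together held 49 members and 58 DKO-only regions. They are numbered in that order, and scores are listed from the lowest to the highest coordinate. In 6 of the 12 no control peak was called between the first and the last DKO-only region, and in 2 of the 12 none was called within 50 kb of the locus either.

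The first locus, chr16:72973641-73068097, was 94.5 kb long and held 5 members and 1 stronger DKO-only region. The members scored 21, 16, 29, 17 and 20 in DKO replicate 1 and 42, 26, 29, 23 and 34 in DKO replicate 2. The stronger region, at its end, scored 31 and 42. Replicate 2 gave the higher score at all but 1 of these 6 regions, where both scored 29. A further peak of replicate 2 alone, with a score of 27, lay inside the locus, and the nearest control peak stood 48.4 kb outside it with a score of 13 (rank 6.47). It was thus almost free of control calls, and with equal list lengths all 6 DKO-only regions were still called.

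The second locus, chr12:58597385-58724858, was the longer of the 5-member loci at 127.5 kb. Its members scored 13, 14, 20, 23 and 19 in DKO replicate 1 and 19, 24, 32, 31 and 17 in DKO replicate 2, and a sixth region at the chain's end scored 18 and 28. Near its middle, at chr12:58647467-58648237, lay a shared region with scores of 32 for the control, 36 for DKO replicate 1 and 59 for DKO replicate 2 (ranks 82.4, 77.1 and 95.8). The members here surrounded an element that was also strong in the control. At equal list lengths 3 of the 6 DKO-only regions were left.

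The third locus, chr1:156853523-156919088, held 4 members with scores of 22, 22, 21 and 25 in DKO replicate 1 and 16, 14, 26 and 34 in DKO replicate 2. Between the first and the second member lay a strong DKO-only region, chr1:156860763-156861385, with scores of 49 and 46 (ranks 90.3 and 90.2). The last 2 members were 1.76 kb apart. The nearest control calls were shared regions 11.2 and 27.3 kb beyond the locus, with control scores of 33 and 20 and DKO scores of 38 and 37 in replicate 1 and 47 and 42 in replicate 2.

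The fourth locus, chr19:32378433-32484743, held both DKO-only and control-only calls. Its 4 members scored 17, 18, 23 and 29 in DKO replicate 1 and 15, 18, 29 and 27 in DKO replicate 2, and the DKO-only region at its end scored 21 and 17. Between them lay 2 control-only regions, with control scores of 34 (rank 85.6) and 19. The second of these, chr19:32463504-32464104, began just after the end of the member chr19:32462533-32463380, so at that point the control and the DKO libraries had adjacent windows that did not overlap. Merging peaks up to 1 kb apart reduced this locus to 4 DKO-only regions.

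The fifth locus, chr16:45378453-45456553, had the lowest mean member rank of the 12, 20.7. Its members scored 12, 13, 11 and 15 in DKO replicate 1, all at rank 9.70 or below, and 13, 17, 23 and 24 in DKO replicate 2. The remaining region scored 16 and 15. No control peak was called within 152 kb. Only 1 of the 5 DKO-only regions was left at equal list lengths and none at a score of at least 21 in each library, so this locus rested on peaks near the bottom of the list of replicate 1.

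The sixth locus, chr19:5794524-5816531, was the most compact of the 12 at 22.0 kb and had the highest mean rank, 64.9. Its 4 members scored 33, 38, 22 and 29 in DKO replicate 1 and 28, 28, 27 and 25 in DKO replicate 2. A control-only peak with a score of 19 stood 7.57 kb before it and a shared region 22.8 kb before it. All 4 members were called as DKO-only at equal list lengths, with peaks up to 1 kb apart merged, with 200 bp windows and at a score of at least 21.

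The seventh locus, chr10:110951991-111021228, had strong control calls inside and beside it. Its 4 members scored 21, 24, 24 and 14 in DKO replicate 1 and 30, 43, 27 and 23 in DKO replicate 2. Between the third and the last member lay a shared region that was strong in every library, chr10:111012921-111013677, with scores of 50 (control), 41 (DKO replicate 1) and 49 (DKO replicate 2). That control score had a rank of 96.8, against 83.6 and 92.0 in the DKO libraries. A region called in the control and in DKO replicate 2, with scores of 20 and 13, also lay inside, and a further shared region, with a control score of 35, stood 8.01 kb before the locus. The members here were added among elements that the control also had.

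The eighth locus, chr11:98724434-98799331, had no control peak within 53.0 kb. Its 4 members scored 21, 21, 34 and 30 in DKO replicate 1 and 12, 34, 27 and 16 in DKO replicate 2. The second and the third were 2.52 kb apart. The replicates disagreed in both directions. Replicate 1 ranked the last member at 66.0 and replicate 2 at 25.4, whereas they ranked the second at 38.4 and 78.4.

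The ninth locus, chr15:76137499-76174395, was 36.9 kb long, and its members scored 21, 26, 31 and 25 in DKO replicate 1 and 16, 28, 22 and 11 in DKO replicate 2. Shared regions followed 6.88 and 36.1 kb after it. The nearer one scored 27 (control), 47 (DKO replicate 1) and 29 (DKO replicate 2). As at 3 of the 4 members, replicate 1 had the higher score there.

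The tenth locus, chr10:79476954-79538579, showed the same order of replicates by score. Its members scored 17, 26, 31 and 22 in DKO replicate 1 and 15, 22, 22 and 21 in DKO replicate 2. By rank, replicate 2 stood higher at the first member (19.8 against 19.6) and at the last (47.9 against 42.4). A shared region inside it, chr10:79515954-79516609, scored 23 (control), 61 (DKO replicate 1) and 36 (DKO replicate 2), with ranks of 58.8, 95.6 and 81.0. This was the largest gap between the control and both DKO ranks among the shared regions inside the 12 loci. Outside the locus the shared regions at 28.8 and 39.4 kb scored 40 and 42 in the control.

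The eleventh locus, chr2:38787229-38863829, had members with scores of 21, 20, 17 and 36 in DKO replicate 1 and 19, 11, 20 and 23 in DKO replicate 2. A shared region inside, chr2:38853333-38854019, scored 20, 39 and 23 in the control and DKO replicates 1 and 2. The control and replicate 2 were close to each other there, and replicate 1 stood apart.

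The twelfth locus, chr7:52872412-52976804, held 7 DKO-only regions, more than any other locus. Its 3 members scored 19, 20 and 30 in DKO replicate 1 and 17, 18 and 25 in DKO replicate 2. The 4 stronger regions scored 53, 41, 56 and 43 in replicate 1 and 39, 39, 39 and 36 in replicate 2, all at ranks above 80 in both libraries. Among these strong regions lay a control-only region, chr7:52967713-52968313, with a control score of 44 (rank 94.8), and its nearest DKO-only neighbour, chr7:52970382-52971069, scored 56 and 39. Strong calls of opposite kind thus stood within 3 kb of each other. This locus kept 6 DKO-only regions at equal list lengths and 5 at the stricter score.

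**Figure D3:**
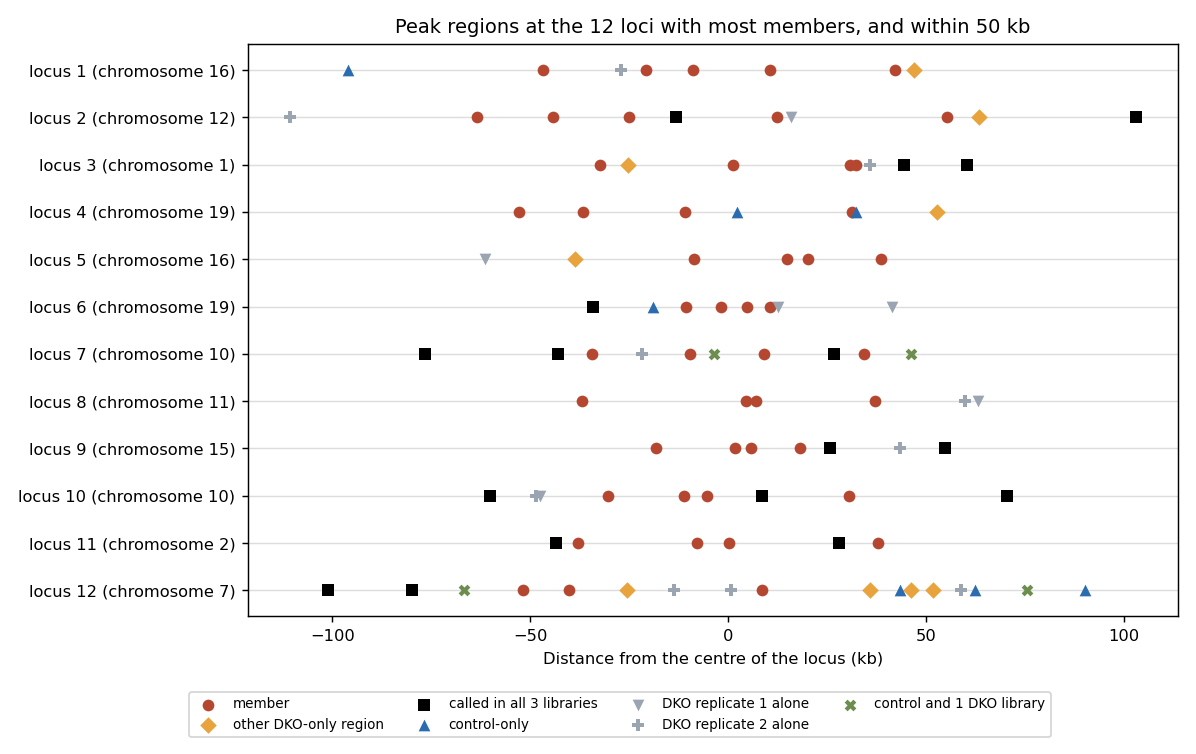
The 12 loci with the most members, 1 per line, with every peak region in the locus and within 50 kb of it placed by its distance in kb from the centre of the locus. Circles are members, diamonds other DKO-only regions, squares regions called in all 3 libraries, triangles pointing up control-only regions, triangles pointing down and plus signs regions of DKO replicate 1 or 2 alone, and crosses regions of the control and 1 DKO library. In 6 loci no control call stands between the first and the last DKO-only region, and loci 5 and 8 have none on their line.

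Over all 176 loci, control calls were common between the DKO-only regions. A region with a control peak lay inside 99 loci (56.3%, Wilson 95% interval 48.9 to 63.4%), a shared region inside 65 (36.9%) and a control-only region inside 39 (22.2%). The largest number of control-called regions inside a locus was 5. In the 65 loci with a shared region inside, the members were extra calls beside an element that the control had as well. The control-only regions were instead calls that both DKO lists lacked. In the 134 loci formed by the exchanged rule, which spanned a median of 45.4 kb, a region with a peak in either DKO library lay inside 86 (64.2%, 55.8 to 71.8%). A region called in both DKO libraries lay inside 55 of them (41.0%, 33.1 to 49.5%). Calls of the other genotype inside a group were thus common under both rules, and which was more common depended on whether 1 or 2 libraries had to have the call.

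At the other extreme, 21 loci with 44 members had no control peak within 50 kb, and in 13 of them the nearest was over 100 kb away. The 3 farthest are named after their values were seen. At chr17:51943907-51972814 the nearest control peak was 624.9 kb away, and the 3 members scored 21, 19 and 22 in DKO replicate 1 and 37, 17 and 23 in DKO replicate 2. At chr1:189427726-189476165 the distance was 219.6 kb, and the 3 members scored 18, 24 and 26 in replicate 1 and 21, 45 and 15 in replicate 2. At chr18:30632514-30689075 it was 199.8 kb. The single member there scored 22 and 48, between regions with scores of 19 and 25 and of 18 and 23. These groups stood in stretches where the control list was empty. Over all members, these included, scores ran from 11 to 40 in replicate 1 and from 10 to 56 in replicate 2.

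The distance from a member to the nearest control peak ran from 16 to 653072 bp with a median of 20185.5 bp. At ungrouped DKO-only regions of the same score range the median was 31970 bp. A control peak lay within 1 kb of 16 members (4.28%, 2.65 to 6.84%) and of 3.87% (3.33 to 4.48%) of the ungrouped regions, so adjacency at that scale was alike within counting error. Within 50 kb, a control peak was present at 304 members (81.3%, 77.0 to 84.9%) and at 62.6% (61.1 to 64.0%) of the ungrouped regions. Requiring that no control peak lie within 5 kb of any DKO-only region, an alternative chosen after the data were seen, left 259 members.

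More members than ungrouped regions had peaks of other classes nearby, clearly so for shared and control-only regions. A shared region had its midpoint within 50 kb at 228 of 374 members (60.96%, 55.9 to 65.8%) and at 46.4% (44.9 to 47.9%) of the ungrouped regions. A control-only region was that near at 135 members (36.1%, 31.4 to 41.1%) against 24.7% (23.4 to 26.0%). A region called in DKO replicate 1 alone was near at 71 members (18.98%, 15.3 to 23.3%) against 14% (13 to 15.1%), and one called in DKO replicate 2 alone at 189 (50.5%, 45.5 to 55.6%) against 41.3% (39.9 to 42.8%). In none of these 4 classes did the intervals overlap. A region called in the control and DKO replicate 2 was near at 13.6% (10.5 to 17.5%) against 11.5% (10.6 to 12.5%), where they did. For the control and DKO replicate 1 the shares were 6.15% (4.13 to 9.06%) against 3.43% (2.93 to 4.01%), without overlap. For replicate 1 alone the shares were close within 25 kb, at 8.29% against 7.07%, and at equal list lengths, at 21.3% against 19.3%. Within 100 kb they lay farther apart, at 35.6% against 23.7%. The mean number of neighbours was 1.4 times as high for shared regions, 1.46 times for control-only regions, 1.47 times for replicate 1 alone and 1.22 times for replicate 2 alone. The excess was therefore not limited to DKO calls. At 50 kb with full lists, control-only neighbours were in excess by about as much as those of DKO replicate 1 alone. Elsewhere these 2 ratios differed: 1.32 and 1.20 within 25 kb, 1.24 and 1.76 within 100 kb, and 1.59 and 1.30 at equal list lengths.

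The 58 grouped DKO-only regions with both scores of 30 or more had a shared region within 50 kb at 58.6% (45.8 to 70.4%) and a control-only region at 43.1% (31.2 to 55.9%). Both intervals overlap those of the members. Weaker and stronger grouped regions can share a locus and its surroundings, since 62 of the 176 loci held a region with both scores of 30 or more. The overlap therefore cannot tell whether weaker and stronger grouped regions differ. The 457 ungrouped DKO-only regions with both scores of 30 or more stood at 53.2% (48.6 to 57.7%) and 35.0% (30.8 to 39.5%). Their share with a control-only neighbour was close to that of the members, so a raised share of this kind was not particular to grouped regions.

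Members of 1 locus share their surroundings, so these intervals are too narrow. With the first member of each locus alone, 104 of 176 (59.1%, 51.7 to 66.1%) had a shared region within 50 kb and 65 (36.9%, 30.2 to 44.3%) had a control-only region. Both stayed above the ungrouped regions' 46.4% and 24.7%. The other classes of neighbour were not counted with the first member alone, so their gaps rest on the intervals that are too narrow. The exchanged rule gave a different picture for shared regions, which were near 48.5% of the grouped control-only regions and 48.2% of the ungrouped ones, a ratio of mean numbers of 1.02. DKO-only regions were near 35.2% of the grouped control-only regions and 30.4% of the ungrouped ones. Against ungrouped regions of the same score range, more shared regions around a group were thus seen for the members and not for their control-only counterpart. The difference between these classes was not tested. Among ungrouped DKO-only regions with both scores of 30 or more, 53.2% had a shared region that near, and among shared regions 53.9% had another. Both values lie within the first-member interval, so such a share was not particular to grouped regions.

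**Figure D4:**
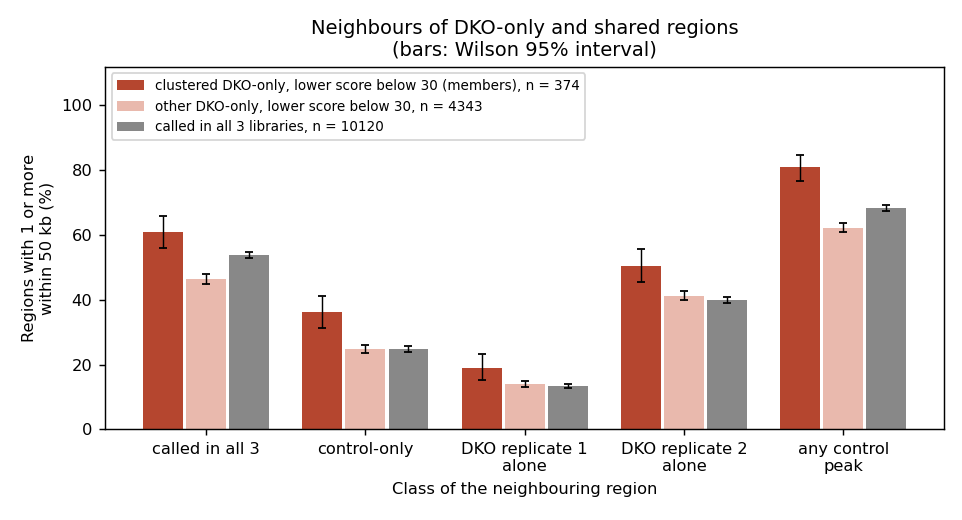
Share of regions (vertical axis, %) with 1 or more regions of a given class (horizontal axis) within 50 kb, for the 374 members, the 4343 other DKO-only regions with a lower score below 30 and the 10120 shared regions. Error bars are Wilson 95% intervals, which cover counting error over regions only. The members' bar is the tallest in each class, with 60.96% against 46.4% for shared neighbours and 36.1% against 24.7% for control-only neighbours.

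Shared regions offer a measure that the rule did not use, since they have a score in every library. Within 50 kb of a member lay 206 of them, and 9914 lay elsewhere on the autosomes. Near members the mean rank was 62.4 for the control, 67.5 for DKO replicate 1 and 70.4 for DKO replicate 2. Elsewhere it was 59.7, 63.1 and 70.5. The control minus the mean of both DKO ranks was -6.54 points (SD 19.8 over regions) near members and -7.14 points (SD 21.5) elsewhere, a difference of 0.60 points. Both values depend on the unequal lengths of the lists: at equal list lengths they were -0.43 and -0.91 points. Taken with 1 DKO library at a time, that difference was -1.68 points for replicate 1 and 2.88 points for replicate 2. It thus had no constant sign. The SD of 3.22 points between the replicates comes from these same values. With opposite signs it always exceeds the size of their mean, so it adds no separate ground.

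A shift of the shared regions towards the DKO libraries in these neighbourhoods was therefore not detectable. Shared regions that ranked at least 25 points lower in the control library than in either DKO library made up 18 of 206 (8.74%, 5.60 to 13.4%) near members and 12.3% (11.7 to 12.96%) elsewhere. Those at least 25 points higher made up 4 of 206 (1.94%, 0.758 to 4.89%) and 2.67% (2.37 to 3.01%). At the 50 shared regions with 3 or more members within 50 kb, the control minus DKO difference was -6.50 points (SD 19.96), again close to the value elsewhere. The gain of calls at members was not accompanied by a measurable change of rank at the shared regions around them.

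The disagreement between the DKO replicates was larger than that difference. The rank in replicate 1 minus that in replicate 2 averaged -2.85 points (SD 18.2) at shared regions near members and -7.41 points (SD 18.6) elsewhere, a difference of 4.56 points. This is the gap between the single-replicate values of -1.68 and 2.88 points, and thus the replicate error itself, from 1 library on each side. A shift at shared regions smaller than this could not be read from these lists. This scale leaves out the error of the control library, which is unknown with 1 library.

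**Figure D5:**
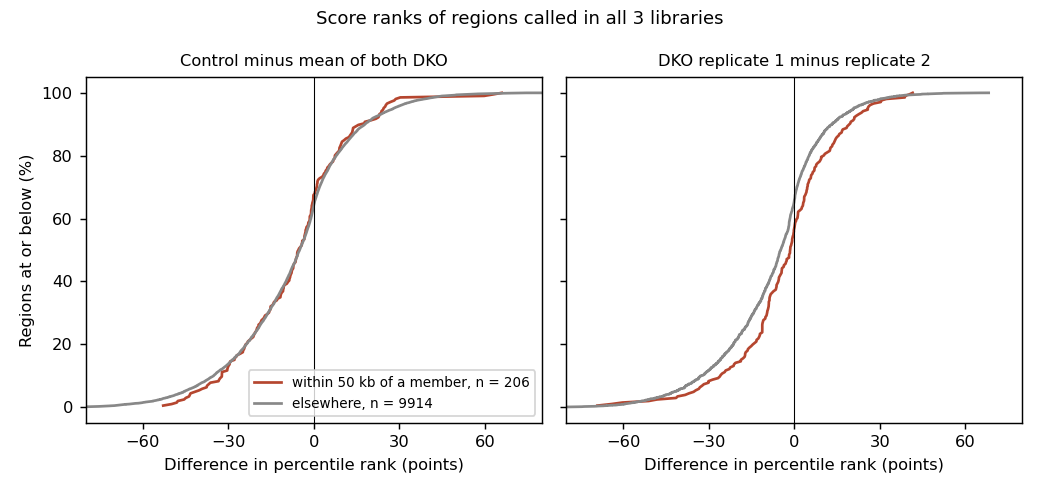
Cumulative share of shared regions (vertical axis, %) by difference in percentile rank (horizontal axis, points), for 206 regions within 50 kb of a member and 9914 elsewhere. In the left panel, the control minus the mean of both DKO libraries, the curves run close together with means of -6.54 and -7.14. In the right panel, DKO replicate 1 minus replicate 2, the curve near members lies to the right, with means of -2.85 and -7.41.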

How the data were processed

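ATAC-seq libraries of 1 control and 2 DKO samples were compared as peak lists. The submitters' processing notes name FastQC 0.11.3, Bowtie2 2.2.6, deepTools 2.4.2 and MACS 1.4.1 and the build mm9, without roles or order. The treatment of duplicates, any shift of reads for the transposase, and calling thresholds are not given in the sources used here. The authors deposited 1 list per library with a score per peak, and the score was used as deposited or as a percentile rank within its library. Each library has its own list. Reads and depth were not used here. Whether the score grows with depth is not stated, and a fixed limit of 30 would then select differently in each library.

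Regions, neighbours and loci were computed with Python 3.11.15, NumPy 2.4.6 and pandas 2.3.3, and the rule was tested on simulated lists. Shares carry Wilson 95% intervals (SciPy 1.17.1), which cover counting error over regions only. No test of genotype was made, since there is 1 control library and regions are not replicates. Distances between regions run between midpoints, and the distance to a control peak is from edge to edge. Starts are 1-based. The members, and the rules for loci and named regions, were chosen with earlier results of these data known. The named loci are the 12 with the most members, with ties broken by the number of DKO-only regions and then by mean rank, and the regions nearest the score limit are the 3 on each side of it. Of the planned results, 3 were not computed because they need mm9 genes or sequence: distance to gene starts, motifs and marker genes. The check of the tissue against its marker genes was therefore not made. Alternatives tried were other score and distance limits, equal list lengths, other merging and window widths, a stricter score and leaving out each DKO replicate; those that bar control peaks within 5 kb, take the first member of each locus, or repeat the replicate correlation at equal list lengths were added after the data were seen.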

Additional observations from a re-analysis of the deposited data

Results flagged for a closer look

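Chromosomes X and Y lie outside the rule and are given here because regions there met its other conditions and control-only regions did not. On chromosome X, 7 of 122 DKO-only regions (5.74%) met the score limit and had 2 or more others within 50 kb, a share below the 7.15% of the autosomes, and 0 of 90 control-only regions did under the exchanged rule. On chromosome Y, 7 of 15 DKO-only regions met both conditions, and the control had 0 control-only regions there. The labels do not give the sex of the embryos, and its part in these counts was not tested.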

How the results depend on the processing

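The number of members depended on each limit of the rule. It was 319 with scores below 25, 417 with scores below 40, 345 with peaks up to 1 kb apart merged and 375 with windows of 200 bp, all within 1.5 times of 374, though the last 2 kept 319 and 278 of the original regions. It was 1534 with 1 or more other regions required and 55 with 3 or more, 91 within 25 kb and 965 within 100 kb, 141 at equal list lengths and 142 when every peak needed a score of at least 21. All 141 were among the original members, whereas only 50 of the original members were found at the stricter score. Leaving out each DKO replicate in turn gave 836 to 2828. The 176 loci became 236 with chains of 25 kb, 174 with chains of 100 kb and 75 at equal list lengths. The difference in control minus DKO rank between shared regions near members and elsewhere ranged from -1.68 to 2.88 points over the alternatives, against 0.60.

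The share of members with a shared region nearby was 38.8% within 25 kb and 77.5% within 100 kb, against 27.3% and 64.8% of the ungrouped regions. For control-only regions it was 19.5%, 52.1% and, at equal list lengths, 46.8%, against 15.3%, 40.8% and 30.7%. The members' share was the higher one in each of these settings. Of the 12 named loci, 9 kept 3 or more DKO-only regions at equal list lengths, 12 with peaks up to 1 kb apart merged, 12 with 200 bp windows and 6 at the stricter score. No paired analysis was possible because just 1 control library was made and its label bears no replicate number. The alternatives for gene starts, motifs and marker genes were not run. The unknown depth limits each count, since a missing control call cannot be told from a signal just under the threshold.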

Other observations

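The rank difference between the DKO replicates was weakly alike at neighbouring regions. Between adjacent DKO-only regions its correlation, with each pair entered in both orders, was 0.19 over 988 pairs up to 50 kb apart. Among these it was 0.23 over the 177 pairs up to 10 kb apart. It was 0.09 over 652 pairs at 50 to 100 kb and 0.18 over 853 pairs at 100 to 200 kb. Farther apart it was 0.12 over 1271 pairs at 200 to 500 kb and 0.10 over 1256 pairs at 500 to 2000 kb. The correlation at 100 to 200 kb was as high as that within 50 kb, so the likeness was not particular to the scale of the loci. Across the 110 loci with a shared region within 50 kb of a member, the locus mean of the members' rank difference and that of the shared regions had a Pearson correlation of 0.37, and of 0.26 over 45 loci at equal list lengths. All points come from the same 2 libraries, so these values are a description.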
